A study of Mus musculus with 4 samples.

Results

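Serotonin can be made, stored, sensed and broken down within pancreatic islets, and 9 genes of this system were followed in the islet RNA-seq table. They were the tryptophan hydroxylases *Tph1* and *Tph2*, the decarboxylase *Ddc*, the vesicular monoamine transporters *Slc18a1* and *Slc18a2*, the receptors *Htr1d*, *Htr2b* and *Htr3a*, and monoamine oxidase *Maob*. They were chosen by symbol, with the entry of the highest mean level standing for each gene, and make up 9 of the 24012 gene symbols in the table, lncRNAs not counted. All 9 were present.

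Islets from male C57bl6 wild type mice of 3 months of age were pooled, kept overnight at 11 mM glucose, moved to 2.8 mM glucose for 2 h, and then held at low (2.8 mM) or high (16.8 mM) glucose, a resting and a stimulating concentration for beta cells. The study asked how glucose stimulation changes islet transcripts, with 2 libraries at each concentration (LoGlu and HiGlu) made from total RNA of 100 islets each. The design text gives a treatment of 12 h throughout, but the labels of LoGlu name 2 h and those of HiGlu 12 h, so glucose and time in culture cannot be told apart with certainty. All libraries came from 1 pool of mixed islet cells, so the tests below measure only the spread between libraries of that pool. In such bulk samples, fewer cells of a type and less RNA per cell cannot be told apart.

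Serotonin is made from tryptophan in a pair of steps, a rate-limiting hydroxylation by a tryptophan hydroxylase, which needs tetrahydrobiopterin, and a decarboxylation by Ddc, which also turns L-DOPA into dopamine. It is packed into secretory granules by the vesicular monoamine transporters, acts on G protein-coupled receptors and on the ion channel built from Htr3a, and is oxidized by monoamine oxidases. In islets it is known above all from pregnancy, when lactogens acting through the prolactin receptor induce *Tph1* in beta cells and Htr2b and Htr1d mediate opposite effects on beta cell growth. Htr3a is known there for its effect on insulin secretion.

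Levels are given as RPKM. The deposited values were read as densities over the whole transcribed span of an entry, introns included, and not over its exons. For *Tph1*, *Htr1d*, *Htr2b*, *Htr3a* and *Slc18a2*, with few reads, a listed span gave values within 0.114 of a whole read, the span nearest to whole reads being taken. *Ddc*, *Maob*, *Slc18a1* and *Tph2* had too many reads for whole reads to show, so their span was taken from RefSeq without such a search. Their read numbers are approximate (farthest distance from a whole read 0.265 to 0.493). From the steps between values of short RNAs the depth of the libraries was 58440000 for LoGlu 1, 51940000 for LoGlu 2, 60680000 for HiGlu 1 and 50780000 for HiGlu 2, in reads, and read numbers for each gene were reconstructed. Beta cell hormone and identity genes were present in every library, with *Ins2* between 15943 and 30018 RPKM, as the islet label requires. Libraries with the number 2 carried more exocrine RNA in both groups, the summed level of 6 acinar markers being 60.0 and 173 RPKM at 2.8 mM and 147 and 321 RPKM at 16.8 mM.

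RefSeq promoter windows, on GRCm38.p6, were found for 6 of the 9 genes (9 windows) and not for *Slc18a1*, *Htr3a* and *Maob*. The 250 bases before the start are shown for both starts of *Ddc*, whose reads fell unevenly around them, and for the scarce hydroxylases *Tph1*, of whose starts the downstream one is shown, and *Tph2*. Capitals mark matches on either strand to the motifs searched, which were CACGTG (E-box), TGACGTCA and its shorter form TGACG (cAMP response element), TTCNNNGAA (STAT) and TATAAA, where TGACG also lies within TGACGTCA. The sequences run 5′ to 3′ on the strand of the gene.
Ddc upstream start, chr11:11898145-11898394, - strand: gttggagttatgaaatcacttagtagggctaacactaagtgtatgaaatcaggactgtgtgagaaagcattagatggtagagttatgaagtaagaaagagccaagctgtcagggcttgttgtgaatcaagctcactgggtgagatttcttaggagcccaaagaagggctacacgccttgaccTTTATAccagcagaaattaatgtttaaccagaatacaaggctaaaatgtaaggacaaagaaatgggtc
Ddc downstream start, chr11:11890409-11890658, - strand: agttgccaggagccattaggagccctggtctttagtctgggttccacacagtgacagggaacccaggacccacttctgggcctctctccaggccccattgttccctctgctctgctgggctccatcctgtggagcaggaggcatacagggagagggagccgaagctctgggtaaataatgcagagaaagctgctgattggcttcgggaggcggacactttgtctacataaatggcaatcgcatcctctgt
Tph1 downstream start, chr7:46667378-46667627, - strand: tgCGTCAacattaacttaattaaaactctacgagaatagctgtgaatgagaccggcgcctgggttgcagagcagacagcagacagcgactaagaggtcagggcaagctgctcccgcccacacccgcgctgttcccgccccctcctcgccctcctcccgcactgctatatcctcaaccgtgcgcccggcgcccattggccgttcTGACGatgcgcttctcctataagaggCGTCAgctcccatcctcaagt
Tph2 start, chr10:115185023-115185272, - strand: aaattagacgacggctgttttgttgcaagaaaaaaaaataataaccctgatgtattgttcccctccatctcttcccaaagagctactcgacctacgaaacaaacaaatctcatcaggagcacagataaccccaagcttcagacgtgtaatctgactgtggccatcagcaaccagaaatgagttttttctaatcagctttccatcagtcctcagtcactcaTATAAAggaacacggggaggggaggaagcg
TATAAA was found 30 bases before the *Tph2* start and, on the other strand, 68 bases before the upstream *Ddc* start. It is present in 12.4% of all 32851 windows of this length. The shorter form TGACG was found 3 times before the downstream *Tph1* start, at 248, 47 and 21 bases, and once before the upstream one, at 36 bases, and 17.8% of all windows hold it. None of the 5 motifs was found before the downstream *Ddc* start. No match to the STAT motif, held by 7.02% of all windows, or to the E-box, held by 6.02%, was found in the 9 windows. A match is a description of letters and does not show that a factor binds.

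Of the synthesis genes, *Ddc* had at least 81.5 times the level of either hydroxylase in every library, and its level rose 2.06-fold at 16.8 mM. *Ddc* (chromosome 11, 11714104 to 11798047 on the minus strand, mm9 build) encodes the enzyme of the second step. Its level was 1.29 and 1.17 RPKM at 2.8 mM and 2.27 and 2.81 RPKM at 16.8 mM, from 5753, 4652, 10523 and 10869 reads. Both 16.8 mM libraries lay above both 2.8 mM libraries, and the ratio of the group means was 2.06 (1.23 ± 0.08 against 2.54 ± 0.38 RPKM, SD, n = 2). *Ddc* was the only 1 of the 9 genes to average 1 RPKM or more, the minimum for the test, and it passed in limma on log2(RPKM + 0.5), with a difference of 0.81 (SE 0.11) and an adjusted p of 0.0023. In that test 10.7% of the 7867 entries were higher at 16.8 mM and 22.8% were lower, and the median difference of all entries was -0.11. Of the called entries 31.9% were higher, which became 44.1% after median centring and 42.3% after quantile normalization. Without a minimum level, over 28047 entries, the adjusted p of *Ddc* by limma was 0.056 and the call was lost.

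The hydroxylases were scarce. *Tph1* (chromosome 7, 53902500 to 53927907, minus strand) had 0.0015 and 0.0093 RPKM at 2.8 mM and 0.0065 and 0.0035 RPKM at 16.8 mM, which is 2, 11, 9 and 4 reads over the whole span. The groups overlapped, and the sum was 13 reads at each concentration, with an exact Poisson 95% interval of 6.92 to 22.2 reads that covers counting error only. A change of *Tph1* was not detectable at this depth.

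*Tph2* (chromosome 10, 114515697 to 114622078, minus strand), known as the hydroxylase of neurons, had 0.0080 and 0.0058 RPKM at 2.8 mM and 0.0279 and 0.0287 RPKM at 16.8 mM. These were 50, 32, 180 and 155 reads spread over a span of 106 kb, and both 16.8 mM libraries lay well above both 2.8 mM libraries. For genes this low the test was made on the reconstructed reads with limma voom, over the 15114 genes averaging 20 reads or more, of which 12.7% were higher at 16.8 mM and 28.5% lower, with a median difference of -0.13. *Tph2* was higher by 2.03 on the log2 scale (SE 0.26, adjusted p = 1.4e-05 by limma voom), 4.10-fold in the ratio of group means. Even so, *Ddc* was 161 and 202 times the level of *Tph2* at 2.8 mM and 81.5 and 97.7 times at 16.8 mM. Where in the span of *Tph2* the reads lie is not recorded in the table.

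Over the 6 of the 9 genes with enough reads, limma voom called *Ddc*, *Tph2* and *Maob* higher and none lower, beside 12.7% higher and 28.5% lower among all genes. By this test the difference of *Ddc* was 1.04 (SE 0.10, adjusted p = 8.8e-07). *Slc18a1*, *Slc18a2* and *Htr2b* did not pass, and *Tph1*, *Htr1d* and *Htr3a* had too few reads to be tested. All 3 calls were kept with each library left out in turn. The groups did not overlap for 5 of the 9 genes, 4 of them higher at 16.8 mM and 1 lower, against 59.4% of the 22481 genes with any signal.

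**Figure D1:**
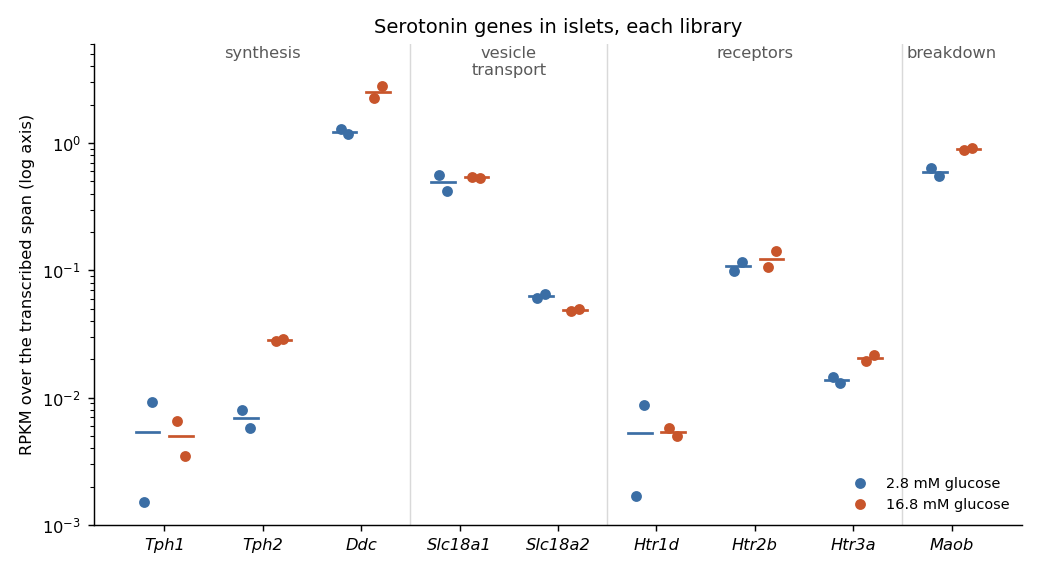
RPKM of the 9 genes in each of the 4 libraries on a log axis, ordered by role; points are libraries, and horizontal lines are the means of 2 libraries. *Ddc*, *Tph2*, *Htr3a* and *Maob* have both 16.8 mM libraries above both 2.8 mM libraries, and *Tph1* and *Htr1d* stay below 0.01 RPKM in every library.

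*Ddc* has a pair of annotated starts, and the table has an entry for each. The entry with the lower RPKM was taken as the longer one, which the table does not state. Both distinct entries of *Htr1d* and the longer pair of the 3 *Tph1* entries fitted whole reads in that order. The remaining *Tph1* entry did not, as it had the lowest mean level and fitted the shortest span. The longer entry held only 31, 19, 49 and 34 reads more than the shorter one, in the order LoGlu 1, LoGlu 2, HiGlu 1 and HiGlu 2, although it adds 7.74 kb. These differences rest on the spans taken for both entries. They are 0.31% to 0.54% of its reads on 9.20% of its span. By these numbers nearly all reads of *Ddc* lay downstream of the downstream start shown above. The density between the starts was 0.069 and 0.047 RPKM at 2.8 mM and 0.104 and 0.087 RPKM at 16.8 mM.

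Within *Ddc*, on the opposite strand, the annotation places the transcript *1700042O10Rik* (11768126 to 11785324), all of whose 17.2 kb lie inside the gene. Its deposited level was 1.48 and 1.31 RPKM at 2.8 mM and 2.58 and 3.19 RPKM at 16.8 mM. The library kit does not mark strand, so reads of the 2 genes cannot be told apart in this stretch. The stretch held 25.2% to 25.8% of the *Ddc* reads on 22.5% of its span. Outside it the density of *Ddc* was 1.24 and 1.13 RPKM at 2.8 mM and 2.18 and 2.69 RPKM at 16.8 mM, a log2 ratio of group means of 1.04 beside 1.05 in the shared stretch. The difference of *Ddc* was thus as large without the shared stretch.

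**Figure D2:**
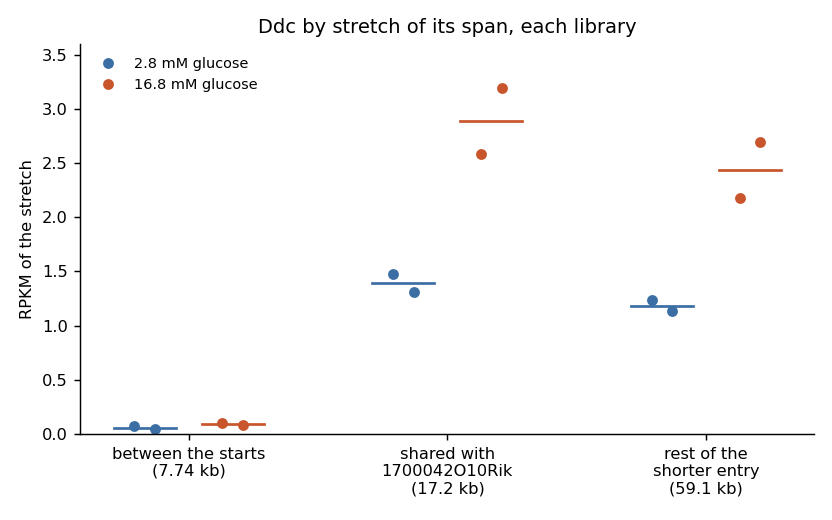
RPKM of 3 stretches of *Ddc* in each library, reconstructed from the deposited entries; points are libraries, lines are means of 2 libraries, and the length of each stretch is given below it. The 7.74 kb between the starts stay near 0, while the stretch shared with *1700042O10Rik* and the rest of the gene both lie higher at 16.8 mM.

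The enzymes that make and recycle tetrahydrobiopterin, the cofactor of the hydroxylases, did not follow *Ddc*. Of the 10 genes of synthesis and cofactor supply, 6 reached the minimum of the limma test. Of these 1 (*Ddc*) was higher and 1 (*Pts*) was lower, beside 10.7% higher and 22.8% lower of all entries. Their median difference was -0.08, beside -0.11 over all entries. *Pts*, an enzyme of tetrahydrobiopterin synthesis, had 6.52 and 6.09 RPKM at 2.8 mM and 4.51 and 4.32 RPKM at 16.8 mM. Its log2 difference was -0.47 (SE 0.10, adjusted p = 0.013 by limma). *Gch1*, the entry enzyme of the pathway, had 8.41 and 7.97 RPKM against 6.73 and 6.01 RPKM, and its difference of -0.34 did not pass in the same test (adjusted p = 0.053 by limma). On reconstructed reads, 8 of the 10 were tested, 2 were higher (*Ddc* and *Tph2*) and 4 were lower. Of all genes 12.7% were higher and 28.5% lower. The 4 lower genes were *Gch1*, *Pts*, *Pcbd2* and *Qdpr*, the last with an adjusted p of 0.046 by limma voom that was lost under quantile normalization. After that normalization *Spr* and *Pcbd1*, which had differences of 0.07 and 0.14 before it, were called higher.

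The vesicular transporters showed no called change. *Slc18a1* (VMAT1; chromosome 8, 71561610 to 71613134, minus strand) had 0.565 and 0.417 RPKM at 2.8 mM and 0.538 and 0.535 RPKM at 16.8 mM. The 16.8 mM libraries lay between the 2.8 mM libraries, and the difference was 0.14 on the log2 scale (SE 0.13, adjusted p = 0.40 by limma voom), which became -0.07 without LoGlu 2 and 0.36 without LoGlu 1. The 590 bases at its 5′ end are shared with *Atp6v1b2*, a proton pump subunit gene on the other strand with 8.81 to 11.0 RPKM, and 18467 bases with the transcript *Gm15716*, not analysed here. Without strand, reads of these stretches cannot be assigned to either gene, so how much of the *Slc18a1* value is *Slc18a1* RNA is uncertain. *Slc18a2* (VMAT2; chromosome 19, 59335368 to 59370502, plus strand) had 0.0609 and 0.0646 RPKM at 2.8 mM and 0.0483 and 0.0493 RPKM at 16.8 mM, from 125, 118, 103 and 88 reads. Both 16.8 mM libraries lay below, but the difference of -0.36 (SE 0.22) did not pass (adjusted p = 0.21 by limma voom). The value over *Slc18a1*, shared stretches included, stood above that of *Slc18a2* in every library, by 6.45 to 11.1 times.

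Of the 7 genes that carry serotonin across membranes, only *Slc29a4*, a low-affinity monoamine transporter of the cell membrane, reached the minimum of the limma test, and it did not pass. It had 1.07 and 1.10 RPKM at 2.8 mM and 1.13 and 1.004 RPKM at 16.8 mM, a difference of -0.02 (SE 0.08, adjusted p = 0.88 by limma). The high-affinity serotonin transporter *Slc6a4* lay between 0.0029 and 0.0047 RPKM. Of the organic cation transporters, *Slc22a2* lay between 0.0142 and 0.0182 RPKM and *Slc22a3* between 0.0336 and 0.0467 RPKM. On reconstructed reads 5 of the 7 were tested by limma voom and none passed, and none had an unadjusted p under 0.05.

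No receptor exceeded 0.142 RPKM. *Htr2b* (chromosome 1, 87995601 to 88008545, minus strand), a Gq-coupled receptor, had 0.0992 and 0.116 RPKM at 2.8 mM and 0.106 and 0.142 RPKM at 16.8 mM, from 75, 78, 83 and 93 reads. The groups overlapped, and the difference was 0.18 (SE 0.23, adjusted p = 0.56 by limma voom), which became -0.02 without HiGlu 2 and 0.40 without HiGlu 1. The whole of *Htr2b* lies within the proteasome subunit gene *Psmd1* on the opposite strand, which had 1.10 and 0.973 RPKM at 2.8 mM and 1.29 and 1.39 RPKM at 16.8 mM. The density over *Htr2b* was 0.082 to 0.119 times that of *Psmd1*, and without strand these reads cannot be assigned to either gene, so how much of the *Htr2b* value is *Htr2b* RNA is uncertain.

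*Htr1d* (chromosome 4, 135979439 to 136000313, plus strand), a Gi-coupled receptor, had 0.0017 and 0.0088 RPKM at 2.8 mM and 0.0058 and 0.0050 RPKM at 16.8 mM, which is 2, 9, 7 and 5 reads. The 11 reads at 2.8 mM (exact Poisson 95% interval 5.49 to 19.7) and the 12 reads at 16.8 mM (6.20 to 21.0) overlapped. *Htr3a* (chromosome 9, 48707319 to 48719204, minus strand), the subunit required in serotonin-gated channels, had 0.0144 and 0.0130 RPKM at 2.8 mM and 0.0194 and 0.0215 RPKM at 16.8 mM. Both 16.8 mM libraries lay above, but the values rest on 10, 8, 14 and 13 reads, and the intervals of the sums, 10.7 to 28.4 for 18 reads and 17.8 to 39.3 for 27 reads, overlapped.

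Among all 14 serotonin receptors of the list, none reached 1 RPKM and 11 stayed under 0.01 RPKM in every library. The highest single value was 0.142 RPKM, of *Htr2b*, and the highest value of a receptor outside the 9 genes was 0.0994 RPKM, of the Gi-coupled *Htr1b*. *Htr1b* had 0.0737 and 0.0498 RPKM at 2.8 mM and 0.0994 and 0.0679 RPKM at 16.8 mM, and its difference of 0.43 (SE 0.39) did not pass (adjusted p = 0.39 by limma voom). *Htr5a* was listed at 0 in 3 libraries and at 0.0025 RPKM in HiGlu 1, *Htr1a* was listed at 0 in 3 libraries and at 0.0043 RPKM in LoGlu 2, and *Htr6* was listed at 0 in LoGlu 2. The remaining receptors, *Htr1f*, *Htr2a*, *Htr2c*, *Htr3b*, *Htr4*, *Htr5b* and *Htr7*, lay between 0.0003 and 0.0070 RPKM.

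On the breakdown side, the paired monoamine oxidase genes of the X chromosome moved in opposite directions. *Maob* (X, 16286408 to 16394492, minus strand), whose enzyme sits in the outer membrane of mitochondria, had 0.637 and 0.549 RPKM at 2.8 mM and 0.876 and 0.920 RPKM at 16.8 mM, from 4022, 3083, 5748 and 5052 reads. The groups did not overlap, and *Maob* was higher by 0.60 (SE 0.10, adjusted p = 1.3e-04 by limma voom), 1.52-fold in the ratio of means. On the log2(RPKM + 0.5) scale its difference was 0.36, which passed with a minimum of 0.5 RPKM (adjusted p = 0.012 by limma) and not without a minimum (adjusted p = 0.066 by limma). *Maoa*, the oxidase that prefers serotonin, had 0.211 and 0.169 RPKM at 2.8 mM and 0.138 and 0.115 RPKM at 16.8 mM, and was lower by 0.58 on the log2 scale (difference -0.58, SE 0.15, adjusted p = 0.0051 by limma voom).

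The ratio of *Maob* to *Maoa* within a library was 3.02 and 3.25 at 2.8 mM and 6.34 and 7.98 at 16.8 mM. The groups did not overlap in this ratio, but with 2 libraries against 2 an exact two-sided permutation test cannot go below 0.333. Of the 6 genes of breakdown and conversion, 5 were in the table and *Asmt* was not analysed here. None reached 1 RPKM. On reconstructed reads 4 were tested, 1 was higher and 1 lower, beside 12.7% higher and 28.5% lower of all genes. The aldehyde dehydrogenases *Aldh2* and *Aldh1a1* did not pass (differences -0.27 and 0.14, adjusted p = 0.09 and 0.74 by limma voom). *Aanat*, which acetylates serotonin on the way to melatonin, had 0.0214 and 0.0386 RPKM at 2.8 mM and 0.0701 and 0.0641 RPKM at 16.8 mM and had too few reads to be tested.

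Ordered by level at 2.8 mM, the 9 genes ran *Ddc*, *Maob*, *Slc18a1*, *Htr2b*, *Slc18a2*, *Htr3a*, *Tph2*, *Tph1* and *Htr1d*. The libraries of *Maob* and *Slc18a1* overlapped, as did those of *Tph2*, *Tph1* and *Htr1d*, so these neighbours did not differ beyond their spread. At 16.8 mM *Tph2* moved ahead of *Htr3a*, and only *Htr1d* and *Tph1*, last in the order, overlapped. As levels are per length of span, the order compares densities of reads, and genes with long introns are lowered in it.

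The LAT1 and LAT2 transporter genes, which carry tryptophan among other amino acids, were lower at 16.8 mM, while the aromatic amino acid transporter gene *Slc16a10* was not. Of 10 genes of tryptophan uptake and other tryptophan use, 5 reached the minimum of the limma test, none was higher and 3 were lower, beside 10.7% higher and 22.8% lower of all entries, with a median difference of -0.29. *Slc3a2* and *Slc7a5* encode the heavy and light chain of the LAT1 transporter of large neutral amino acids. *Slc3a2* had 66.2 and 62.8 RPKM at 2.8 mM and 22.6 and 20.7 RPKM at 16.8 mM, a difference of -1.55 (SE 0.13, adjusted p = 4.6e-04 by limma). *Slc7a5* had 7.34 and 6.95 RPKM against 3.71 and 3.95 RPKM, a difference of -0.82 (SE 0.10, adjusted p = 0.0017 by limma). *Slc7a8*, the LAT2 light chain, was lower by less, with a difference of -0.29 (SE 0.08, adjusted p = 0.036 by limma). *Slc16a10* had 1.13 and 1.07 RPKM at 2.8 mM and 1.28 RPKM in both 16.8 mM libraries, and did not pass (difference 0.16, adjusted p = 0.15 by limma). On reconstructed reads its difference of 0.22 did not pass either (adjusted p = 0.054 by limma voom), but it was called higher with the replicate block (adjusted p = 0.0071) and with quantile normalization (adjusted p = 0.0031). *Wars*, the cytoplasmic tryptophanyl-tRNA synthetase, had 3.78 to 3.98 RPKM in all 4 libraries and a difference of 0.03 (SE 0.09, adjusted p = 0.79 by limma). On reconstructed reads 8 of the 10 were tested, none was higher and 6 were lower, beside 12.7% higher and 28.5% lower of all genes, with a median difference of -0.89. The 3 that joined were the apical transporter *Slc6a19*, the tryptophan-degrading *Tdo2* and the mitochondrial *Wars2*, with differences of -0.89, -0.95 and -0.92. These transporters carry other amino acids too, and tryptophan itself was not measured.

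**Figure D3:**
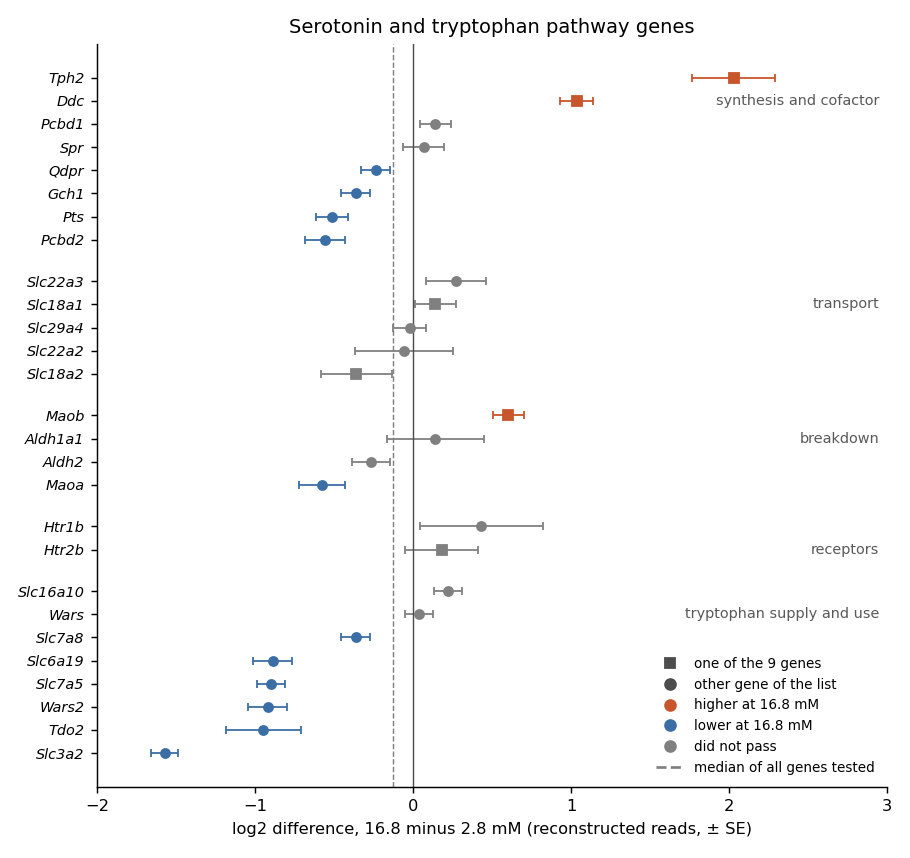
Differences between 16.8 and 2.8 mM glucose on the log2 scale, from limma voom on reconstructed reads, for the tested genes of 5 lists; bars are standard errors, squares are the 9 serotonin genes, colours mark the direction of a call and the dashed line is the median of all genes tested (-0.13). *Tph2* and *Ddc* lie farthest to the right and *Slc3a2* farthest to the left among the genes drawn.

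Signalling from the prolactin receptor is the known inducer of *Tph1* in pregnancy, and transcripts of 8 of its genes were examined beside *Tph1*. The activity of this signalling was not measured. Of these 8 genes, 5 reached the minimum of the limma test, with a median difference of 0.49. Of the 5, 3 were higher and 1 lower, beside 10.7% higher and 22.8% lower of all entries. *Prlr*, the receptor, had 0.875 and 0.858 RPKM at 2.8 mM and 3.71 and 4.63 RPKM at 16.8 mM, and was higher by 1.77 (SE 0.11, adjusted p = 1.6e-04 by limma). It reached the minimum of 1 RPKM only through the 16.8 mM libraries, and on reconstructed reads its difference was 2.26 (SE 0.10, adjusted p = 9.3e-11 by limma voom). The feedback inhibitors *Cish* and *Socs2*, targets of Stat5, were higher by 0.61 and 0.49 (adjusted p = 0.0021 and 0.0065 by limma). The transducer *Stat5b* had 1.59 RPKM in both 2.8 mM libraries and 1.04 and 1.03 RPKM at 16.8 mM, a difference of -0.44 (SE 0.07, adjusted p = 0.0056 by limma). On reconstructed reads all 8 were tested, 3 were higher and 4 (*Stat5b*, *Stat5a*, *Jak2* and *Bcl6*) were lower, beside 12.7% and 28.5% of all genes, and the median was -0.35. While *Prlr* differed in this way, *Tph1* had 13 reads in each group, too few for a change to be detectable. No lactogen was named among the treatments.

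**Figure D4:**
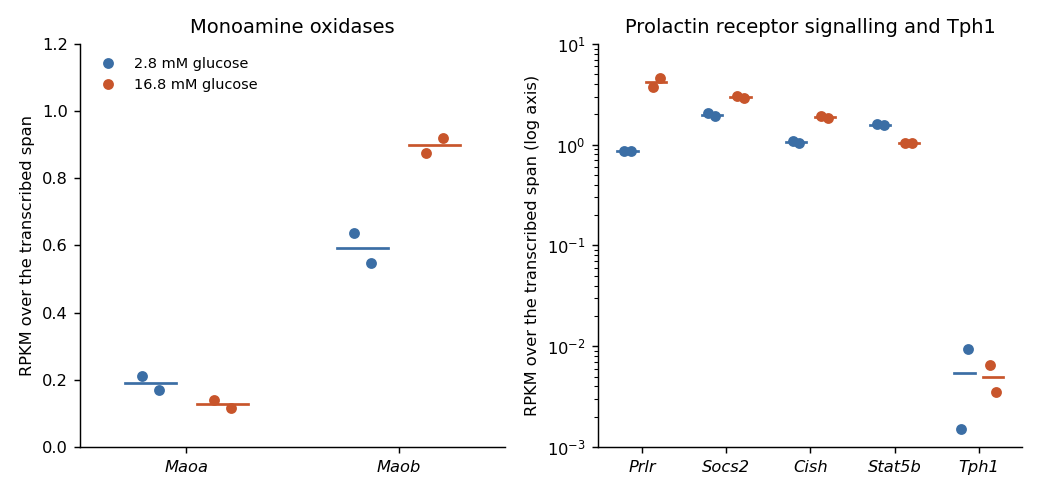
Left, RPKM of *Maoa* and *Maob* in each library on a linear axis; right, RPKM of the prolactin receptor *Prlr*, its signalling genes *Socs2*, *Cish* and *Stat5b*, and *Tph1* on a log axis. Points are libraries and lines are means of 2 libraries; *Maob* lies higher and *Maoa* lower at 16.8 mM, and *Tph1* stays below 0.01 RPKM in every library while *Prlr* reaches 4.63 RPKM.

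Markers of cell types in which serotonin genes are also active were examined beside these values. Of 7 mast cell markers, all had means under 0.1 RPKM, *Cma1* and *Fcer1a* were at 0 in all libraries, and the sum was 0.116 to 0.147 RPKM at 2.8 mM and 0.0997 to 0.136 RPKM at 16.8 mM. The 5 platelet markers summed to 0.833 and 0.456 RPKM at 2.8 mM and 1.81 and 0.832 RPKM at 16.8 mM, with *Pf4* at 0.264 to 1.37 RPKM, and none of 3 tested passed by limma voom (2 had an unadjusted p under 0.05).

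Of the 8 beta cell markers 6 were higher in the limma test, beside 10.7% of all entries. On reconstructed reads all 8 were higher, beside 12.7% of all genes. The sum of these markers was 22913 and 20565 RPKM at 2.8 mM and 43731 and 40959 RPKM at 16.8 mM. With quantile normalization *Ins2* and *Iapp* were no longer called (differences 0.21 and 0.04, adjusted p = 0.50 and 0.85 by limma voom). The other beta cell markers stayed higher in that setting. None of the 4 alpha cell markers tested passed in the limma test (1 had an unadjusted p under 0.05). None of the 5 acinar markers tested passed in the limma test, 3 at an unadjusted p under 0.05, and 5 of 6 were higher on reconstructed reads. Their part in the differences of *Ddc*, *Tph2* and *Maob* was not tested.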

How the data were processed

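The authors deposited 1 table of RPKM values, with 1 column per library and no counts. All value columns were used, and 0 had no sample. The submitters' processing notes name STAR, bedtools, DESeq and mm9 without versions. No step for these libraries is described apart. Depth came from steps of RNAs up to 300 bases, of which 98.4% to 98.6% of values up to 30 reads lay within 0.1 of a whole read. The depth was chosen to bring most of these values near whole reads, so this share is no independent check of it. It used the RNA length minus 1 base, and with the full length the share was 93.5% to 95.8%. Reads were then RPKM times span times depth, an estimate of the authors' counts.

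The test was limma 3.58.1 (R 4.3.3; trend, Benjamini-Hochberg, 0.05) on log2(RPKM + 0.5), for distinct entries that averaged 1 RPKM or more. The added 0.5 shrinks the change of low genes. limma voom on reads was an alternative listed with the others and is the source of values for genes under the minimum. The limma test was tried on simulated data. Python 3.11.15, pandas 2.3.3, numpy 2.4.6, scipy 1.17.1 and matplotlib 3.10.9 served elsewhere. Named were the 9 genes, pathway genes past the threshold, serotonin receptors and transporters, and genes that overlap one of the 9; other named genes of the lists were added with their values known. The members and lists were chosen with earlier results of these data known. A few genes of the lists are not reported here. Library numbers 1 and 2 come from the labels. Gene positions are from GENCODE on mm9 build. Intervals cover counting error only, since PCR duplicates cannot be told apart.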

Additional observations from a re-analysis of the deposited data

How the results depend on the processing

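With limma on log2(RPKM + 0.5), only 1 of the 9 genes was tested, and it was higher. Of 25 pathway genes tested there, 5 were higher and 7 lower, beside 10.7% and 22.8% of all entries. limma voom on reads tested 6 of the 9 genes and 52 pathway genes, with 12.7% higher and 28.5% lower of all genes. It called 3 of the 9 higher, as it did with the replicate block and with quantile normalization. A minimum of 0.5 RPKM gave 2 of 3 tested. Without a minimum 1 was called, *Tph2* in place of *Ddc*, and with the replicate block added 0 were called, as were 0 of all 28047 entries by limma, 10349 of them at an unadjusted p under 0.05 (*Tph2*, *Ddc* and *Maob* then had adjusted p of 0.078, 0.11 and 0.11 by limma). Pathway genes higher numbered 9 with median centring, 9 with voom, 10 with voom and the replicate block, 14 with voom and quantile normalization, and 0 without a minimum and with the block. Those lower numbered 22, 23, 19 and 0 in the last 4 of these settings. Voom tested 52 pathway genes and the fit without a minimum 79, so these counts are not directly comparable with those of 25. With each library left out in turn, in either test, the 9 genes gave 1 to 3 calls, pathway genes gave 5 to 8 higher and 5 to 20 lower. Voom without LoGlu replicate 1 gave 10 lower, against 22 with all libraries. The minimum of 0.5 RPKM, the block without a minimum, voom with quantile normalization and voom without a library were chosen after seeing the data. A group left with 1 library is assumed to vary like the other. *Ddc* kept its direction in 25 settings, with differences of 0.66 to 1.19, *Tph2* in 10 (0.06 to 2.27, the low end from the added 0.5 RPKM) and *Maob* in 11 (0.36 to 0.73). *Slc18a1* (-0.0738 to 0.364) and *Htr2b* (-0.0157 to 0.3998), neither of which passed, changed sign with 1 library left out. Under the replicate block alone *Ddc* had an adjusted p of 0.017 by limma, and all entries called numbered 4067 in place of 2628. Voom called 6223 of 15114, 8465 with the block, 6705 with quantile normalization and 2636 to 5294 with a library left out. Same-numbered libraries deviated together with a correlation of 0.31 over 7867 entries, but 2 pairs cannot show that the numbers pair the samples. Groups of 2 libraries are too small for a test of single outlying libraries.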

Other observations

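Dopamine shares Ddc and the vesicular transporters with serotonin, and *Th*, the rate-limiting enzyme of catecholamine synthesis, was also higher at 16.8 mM. It had 2.11 and 2.05 RPKM at 2.8 mM and 3.54 and 3.20 RPKM at 16.8 mM, and its log2 difference was 0.58 (SE 0.09, adjusted p = 0.0043 by limma). *Dbh*, which makes noradrenaline from dopamine, lay between 0.0010 and 0.0033 RPKM, and the dopamine transporter *Slc6a3* between 0.0009 and 0.0020 RPKM. The dopamine receptor *Drd2* lay between 0.0006 and 0.0017 RPKM, and *Drd1a* between 0.0428 and 0.0825 RPKM.

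Among 14 genes of Gq and Gi coupling, 6 reached the minimum of the limma test, none was higher and 2 were lower, beside 10.7% higher and 22.8% lower of all entries, with a median difference of -0.01. *Gna11*, a Gq family alpha subunit, had 6.19 and 5.45 RPKM at 2.8 mM and 4.06 and 3.77 RPKM at 16.8 mM (difference -0.52, SE 0.11, adjusted p = 0.012 by limma). *Gnai2*, a Gi alpha subunit, had 32.7 and 31.5 RPKM against 15.8 and 14.3 RPKM (difference -1.07, SE 0.12, adjusted p = 0.0014 by limma). On reconstructed reads all 14 were tested, 7 were lower, beside 28.5% of all genes, and 2, *Gnai3* and *Gnaz*, were higher, beside 12.7% (differences 0.30 and 0.28, adjusted p = 0.016 and 0.039 by limma voom). The lower genes included the inositol trisphosphate receptors *Itpr1* and *Itpr2*, with differences of -0.57 and -0.49, while *Itpr3* did not pass (difference -0.09).

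Of the other cell type lists on reconstructed reads by limma voom, 2 of 4 endothelial markers (*Pecam1* and *Cdh5*) were higher, 1 of 3 delta and PP cell markers (*Sst*) was higher, and of 3 duct markers *Krt19* was higher and *Krt7* lower. Of all genes 12.7% were higher and 28.5% lower in this test. None of 5 fibroblast and stellate cell markers and none of 3 leukocyte markers tested passed, and none of these had an unadjusted p under 0.05. The only mast cell marker with enough reads, *Kit*, did not pass (difference -0.13, adjusted p = 0.51).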
